A study of Homo sapiens with 22 samples.

Results

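The AKR1 aldo-keto reductase genes described here are AKR1A1, AKR1B1, AKR1B10, AKR1C1, AKR1C2 and AKR1C3, 6 of 25244 genes in the HUWE1 experiment and 6 of 25791 genes in the MIZ1 experiment. They were chosen by gene symbol, with earlier results from the same libraries in view, so their values are given as a description and carry no test. All 6 genes were found in both experiments. AKR1A1, AKR1B1, AKR1C1, AKR1C2 and AKR1C3 averaged at least 5 CPM (reads of a gene scaled to library size) in both, and AKR1B10 averaged 4.85 CPM in the HUWE1 experiment and 6.58 CPM in the MIZ1 experiment. AKR1B10 is therefore outside the genes of at least 5 CPM, called all genes here, in the HUWE1 experiment, and it is among them in the MIZ1 experiment only through its levels with BI8622. The place of AKR1B10 among all genes thus carries no weight in either experiment.

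RNA came from Ls174T cells, a human colon carcinoma line that depends on MYC for growth, and BI8622 is a small molecule inhibitor of the ubiquitin ligase HUWE1. In the HUWE1 experiment, cells stably carried a pLKO lentiviral vector with an shRNA targeting HUWE1 (shHUWE1) or the empty vector (control) and received BI8622 or the solvent DMSO. In the MIZ1 experiment, cells carried an shRNA targeting MIZ1 that doxycycline induces, were kept with doxycycline (+Dox, 1 µg/ml for 4 days) or without it (-Dox), and received BI8622 or DMSO. BI8622 was used at 20 µM for 16 h, and each of the 4 groups of an experiment had 2 libraries. The shRNA against HUWE1 is present throughout the life of the infected pool, whereas BI8622 acted for hours. All cells of the MIZ1 experiment carried the inducible vector, so the -Dox cells are not the control vector cells of the other experiment.

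Aldo-keto reductases reduce aldehydes and ketones to alcohols with NADPH. The AKR1C enzymes act on steroid hormones, prostaglandins and xenobiotic ketones, the AKR1B enzymes on glucose, retinal and lipid aldehydes, and AKR1A1 on a wide range of aldehydes. In human epithelial cells, AKR1B10 and the AKR1C genes are known targets of NRF2, the transcription factor of the response to oxidants and electrophiles. AKR1B10 is known for its expression in the normal intestine and in several carcinomas.

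The values are the authors' mean levels for pairs of groups, from which the level of each single group was solved. No values per library were used, so a level or ratio has no replicate error, and a difference can be read only against the spread over all genes. Each level combines several pair means, so the levels of an experiment are not independent of each other. In bulk RNA, fewer cells with a transcript and less of it per cell cannot be told apart. A ratio is given on the log2 scale, with the group named first over the other.

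AKR1C1 and AKR1C2 are near copies, and their sequences are shown because they set what a count for either gene can mean. On GRCh37, AKR1C1 (ENSG00000187134) lies on the plus strand of chromosome 10 from 5005445 to 5025475, AKR1C2 (ENSG00000151632) on the minus strand from 5029967 to 5060223 and AKR1C3 (ENSG00000196139) on the plus strand from 5077546 to 5149878. Each has a coding sequence of 969 bases. AKR1C1 and AKR1C2 were identical at 950 of 969 coding positions (98.0%), with a longest identical run of 186 bases. AKR1C3 was identical to AKR1C1 at 91.4% and to AKR1C2 at 91.0% of positions. The 60 coding bases in which AKR1C1 and AKR1C2 differ most, positions 103 to 162 counted from the A of the start codon, lie within 1 exon of each gene. They are at chr10:5008124-5008183 for AKR1C1, chr10:5043796-5043855 for AKR1C2 and chr10:5138620-5138679 for AKR1C3. Capitals mark bases that differ from AKR1C1.
AKR1C1: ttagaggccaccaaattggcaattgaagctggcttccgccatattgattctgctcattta
AKR1C2: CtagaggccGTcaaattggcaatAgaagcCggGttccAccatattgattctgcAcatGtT
AKR1C3: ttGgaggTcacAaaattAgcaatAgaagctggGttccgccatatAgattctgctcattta
AKR1C2 differs from AKR1C1 at 10 of these 60 bases, and AKR1C3 differs from AKR1C1 at 7.

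Of the 36-base windows of the AKR1C2 transcript, 54.7% were found exactly in the AKR1C1 transcript, and of the AKR1C1 windows 26.7% were found in AKR1C2. The AKR1C1 share is lower because its transcript has 6543 bases and that of AKR1C2 3215. No AKR1C1 window from base 3201 on was found in AKR1C2. With 50-base windows, 45.7% of AKR1C2 and 22.3% of AKR1C1 were shared. These shares count exact matches only, so windows that match with a mismatch are not part of them. A read from a shared window fits both genes equally. The paper aligned reads at default settings, but the sources used here do not say how such reads were counted per gene. The split of counts between AKR1C1 and AKR1C2 is therefore uncertain. AKR1C3 was more distinct than AKR1C2: 23.7% of its 36-base windows were found in any of 24 other AKR1 transcripts, against 55.8% for AKR1C2. The AKR1C3 windows were found most often in AKR1C2 (17.1%). AKR1B10 shared 24.1%, mostly with AKR1B15 (16.8%), AKR1B1 shared 14.9%, and AKR1A1 shared none of its 1372 windows.

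The bases before the transcription start are also close between AKR1C1 and AKR1C2. RefSeq promoters (250 bases before to 50 after the start, 300 bases in all, from a table on GRCh38.p14) were found for AKR1A1, AKR1B1, AKR1C1, AKR1C2 and AKR1C3, 5 of the 6 genes. Those of AKR1C1 and AKR1C2 were identical at 288 of 296 aligned positions (97.3%), and the first AKR1C3 promoter matched AKR1C1 at 75.5%. The last 90 bases before the start are shown because both close copies hold the same motif match there. Located in GRCh37 by exact match, they are chr10:5005517-5005606 for AKR1C1, chr10:5046050-5046139 for AKR1C2 and chr10:5090883-5090972 for the first of 2 AKR1C3 promoters. The second AKR1C3 promoter, with its bases before the start at chr10:5136356-5136605, is not shown and also lacks that motif match. Capitals mark a match to TGAGNNNGC, a form of the antioxidant response element core through which NRF2 acts, here on the opposite strand.
AKR1C1: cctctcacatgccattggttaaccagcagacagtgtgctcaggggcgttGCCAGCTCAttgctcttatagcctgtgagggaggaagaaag
AKR1C2: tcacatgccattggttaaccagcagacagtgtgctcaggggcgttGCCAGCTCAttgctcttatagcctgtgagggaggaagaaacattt
AKR1C3: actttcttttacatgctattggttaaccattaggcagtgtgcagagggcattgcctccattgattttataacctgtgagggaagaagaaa
On both strands, 18.3% of 35116 promoters of that length held TGAGNNNGC and 13.3% held the form TGACNNNGC, which none of these 5 genes did. The xenobiotic response element core GCGTG, bound by the aryl hydrocarbon receptor AHR, was found in both AKR1B1 promoters and in 36.5% of all promoters. The AKR1B1 promoters overlap, and their match is the same site. The E-box CACGTG, bound by MYC and MAX, was found in the AKR1A1 promoter and in 7.26% of all promoters. A match describes the letters only.

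The targeted genes were checked first. HUWE1 was at 218 CPM in shHUWE1 cells and 420 CPM in control cells in DMSO, and at 176 CPM in shHUWE1 cells and 460 CPM in control cells with BI8622. ZBTB17, which encodes MIZ1, was at 11.0 CPM in +Dox cells and 15.7 CPM in -Dox cells in DMSO, and at 11.4 CPM in +Dox cells and 22.6 CPM in -Dox cells with BI8622. All 10 colon epithelial markers were listed in both experiments, with summed levels of 1737 to 3049 CPM over the groups of the HUWE1 experiment and 1729 to 2578 CPM in the MIZ1 experiment. Markers of fibroblasts, leukocytes and endothelial cells summed to at most 9.45 CPM each.

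BI8622 was compared with DMSO to ask how HUWE1 inhibition alters expression. In control vector cells the 3 AKR1C genes and AKR1B10 stood higher with BI8622, and AKR1A1 and AKR1B1 did not. AKR1C1, a 20-alpha-hydroxysteroid dehydrogenase that inactivates progesterone, was at 66.6 CPM with BI8622 and 35.2 CPM with DMSO, a log2 ratio of 0.92, above that of 97.8% of 16989 genes of at least 5 CPM. AKR1C2, which inactivates dihydrotestosterone, was at 58.1 CPM with BI8622 and 29.6 CPM with DMSO (log2 ratio 0.97, above 98.1% of genes). AKR1C3, which makes testosterone and prostaglandin F, was at 104 CPM with BI8622 and 67.7 CPM with DMSO (log2 ratio 0.61, above 93.4%).

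AKR1B10 (ENSG00000198074, chromosome 7, 134212319 to 134226164 on the plus strand) is a reductase of retinal and lipid aldehydes. In control vector cells it was at 7.68 CPM with BI8622 and 4.82 CPM with DMSO (log2 ratio 0.67, above 94.6% of genes). AKR1B10 itself is not one of those genes, as it averaged under 5 CPM. AKR1B1 (ENSG00000085662, chromosome 7, 134127108 to 134144036 on the minus strand), aldose reductase, which converts glucose to sorbitol, was at 59.8 CPM with BI8622 and 67.2 CPM with DMSO (log2 ratio -0.17). AKR1A1 (ENSG00000117448, chromosome 1, 46016215 to 46035721 on the plus strand), aldehyde reductase, was at 54.8 CPM with BI8622 and 55.3 CPM with DMSO (-0.01). No member reached 2-fold, where 1.77% of all genes were at least 2-fold higher, and 4 of 6 members were at least 1.5-fold higher, where 7.26% of all genes were. Without AKR1B10, which is below 5 CPM on average, that was 3 of 5 members. With the pair means read as geometric instead of arithmetic means, AKR1C2 had a log2 ratio of 1.07 and so passed 2-fold. The median log2 ratio was 0.64 over the members (0.61 without AKR1B10) and 0.00 over all genes.

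In shHUWE1 cells the same genes stood higher with BI8622 by less, apart from AKR1B10. AKR1C1 was at 29.3 CPM with BI8622 and 19.1 CPM with DMSO (log2 ratio 0.62), AKR1C2 at 25.0 CPM with BI8622 and 16.7 CPM with DMSO (0.58), and AKR1C3 at 65.3 CPM with BI8622 and 45.8 CPM with DMSO (0.51). AKR1B10 was at 3.48 CPM with BI8622 and 3.41 CPM with DMSO (0.03), while AKR1B1 was at 49.0 CPM with BI8622 and 60.9 CPM with DMSO (-0.31) and AKR1A1 at 52.4 CPM with BI8622 and 56.2 CPM with DMSO (-0.10). No member was 2-fold higher, against 1.05% of all genes, and AKR1C1 alone was 1.5-fold higher, against 4.66% of all genes. That count turned on small shifts, since AKR1C1 was at 0.50 with the pair means read as geometric, and AKR1C2 passed 1.5-fold, at 0.61, with ratios centred on the median of all genes and, at 0.59, with the excess of the summed levels subtracted. The median was 0.27 over the members (0.51 without AKR1B10) and -0.03 over all genes.

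The BI8622 log2 ratio in shHUWE1 cells minus that in control vector cells was -0.64 for AKR1B10, with 1.33% of genes lower. It was -0.39 for AKR1C2 (5.58% of genes lower), -0.30 for AKR1C1 (10.1%), -0.14 for AKR1B1, -0.10 for AKR1C3 and -0.09 for AKR1A1, and the median of all genes was -0.03. With the pair means read as geometric, it was -0.64 for AKR1B10, -0.59 for AKR1C2 and -0.49 for AKR1C1. AKR1B10 was also the member of lowest level and is not one of the genes it is placed among here, and this difference was not tested.

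Cells with shHUWE1 were compared with control vector cells to set lasting depletion of HUWE1 beside its inhibition. The AKR1C genes and AKR1B10 stood lower in shHUWE1 cells, in DMSO and with BI8622, the opposite direction to BI8622 in control vector cells. In DMSO, AKR1C1 was at 19.1 CPM in shHUWE1 cells and 35.2 CPM in control vector cells, a log2 ratio of -0.88 that 13 of 16989 genes fell below. AKR1C2 was at 16.7 CPM in shHUWE1 cells and 29.6 CPM in control vector cells (-0.82, with 21 genes lower). AKR1C3 was at 45.8 CPM in shHUWE1 cells and 67.7 CPM in control vector cells (-0.56, with 106 genes lower). AKR1B10, not one of the 16989 genes, was at 3.41 CPM in shHUWE1 cells and 4.82 CPM in control vector cells (-0.50, with 162 genes lower). AKR1B1 was at 60.9 CPM in shHUWE1 cells and 67.2 CPM in control vector cells (-0.14), and AKR1A1 at 56.2 CPM in shHUWE1 cells and 55.3 CPM in control vector cells (0.02).

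No member was 2-fold lower in shHUWE1 cells in DMSO, where 0.0177% of all genes were, that is 3 genes, and AKR1C1 and AKR1C2 were at least 1.5-fold lower, where 0.506% were, that is 86 genes. The median was -0.53 over the members (-0.56 without AKR1B10) and 0.01 over all genes. The BI8622 and shHUWE1 comparisons share the control vector libraries in DMSO, so their values stand side by side only.

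With BI8622 the gap between shHUWE1 and control vector cells was wider. These groups were not a pair in the authors' values, so the ratios rest on solved levels that could not be checked by another route. AKR1C2 was at 25.0 CPM in shHUWE1 cells and 58.1 CPM in control vector cells (log2 ratio -1.22), and AKR1C1 at 29.3 CPM in shHUWE1 cells and 66.6 CPM in control vector cells (-1.18). AKR1B10 was at 3.48 CPM in shHUWE1 cells and 7.68 CPM in control vector cells (-1.14), and AKR1C3 at 65.3 CPM in shHUWE1 cells and 104 CPM in control vector cells (-0.67). Of 16989 genes, 4 were below AKR1C2, 7 below AKR1C1, 8 below AKR1B10 and 100 below AKR1C3. AKR1B1 was at 49.0 CPM in shHUWE1 cells and 59.8 CPM in control vector cells (-0.29), and AKR1A1 at 52.4 CPM in shHUWE1 cells and 54.8 CPM in control vector cells (-0.06).

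Counted against all genes, AKR1B10, AKR1C1 and AKR1C2 were at least 2-fold lower in shHUWE1 cells with BI8622, 3 of 6 members, and with AKR1C3 4 members were at least 1.5-fold lower. AKR1B10 is not among the genes of at least 5 CPM in this experiment, so the shares of all genes stand beside the other 5 members, of which 2 were at least 2-fold lower, where 0.0883% of all genes were, and 3 at least 1.5-fold lower, where 0.942% were. The median was -0.90 over the members (-0.67 without AKR1B10) and -0.03 over all genes. HUWE1 itself, the shRNA's target, had a log2 ratio of -1.38 in this comparison and -0.95 in DMSO.

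**Figure D1:**
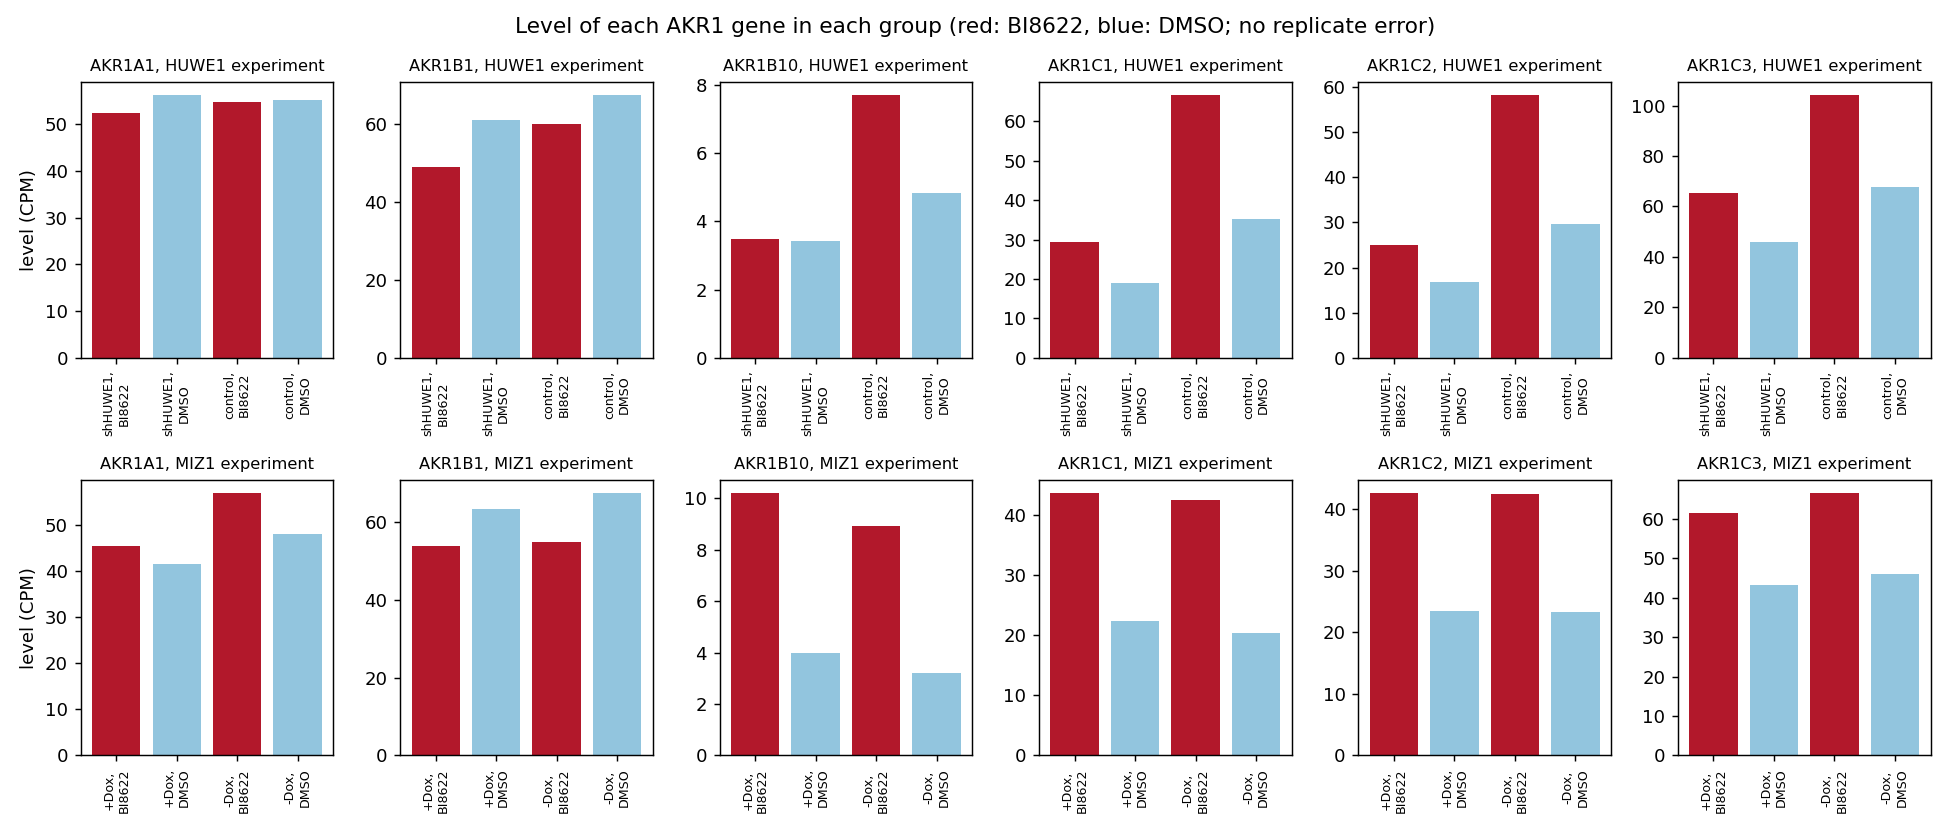
Level of each AKR1 gene (y axis, CPM, own scale in each panel) in the 4 groups of the HUWE1 experiment (top) and the MIZ1 experiment (bottom), 1 bar a group, red for BI8622 and blue for DMSO, with no error bars because no values per library were used. The AKR1C genes and AKR1B10 were highest in control vector cells with BI8622 in the HUWE1 experiment, at 66.6 CPM for AKR1C1, and higher in both BI8622 groups of the MIZ1 experiment.

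The MIZ1 experiment asked whether the response to BI8622 needs MIZ1. In -Dox cells AKR1B10 had the highest ratio of the members. It was at 8.92 CPM with BI8622 and 3.20 CPM with DMSO, a log2 ratio of 1.48 above that of 98.4% of 17254 genes. AKR1C1 was at 42.6 CPM with BI8622 and 20.4 CPM with DMSO (1.06, above 96.0%), AKR1C2 at 42.4 CPM with BI8622 and 23.3 CPM with DMSO (0.87, above 93.6%) and AKR1C3 at 66.5 CPM with BI8622 and 46.1 CPM with DMSO (0.53, above 85.2%). AKR1A1 was at 56.8 CPM with BI8622 and 47.9 CPM with DMSO (0.25) and AKR1B1 at 54.8 CPM with BI8622 and 67.5 CPM with DMSO (-0.30). AKR1B10 and AKR1C1 were at least 2-fold higher, against 4.60% of all genes, and 3 members were at least 1.5-fold higher, against 12.8%. AKR1B10 averaged at least 5 CPM only through the BI8622 groups, where it was higher, so its rank and its place in these counts carry no weight. AKR1C1 was under 2-fold, at 0.94, with the pair means read as geometric. The median was 0.70 over the members (0.53 without AKR1B10) and 0.02 over all genes.

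In +Dox cells the order of the ratios was the same. AKR1B10 was at 10.2 CPM with BI8622 and 4.00 CPM with DMSO (1.35), AKR1C1 at 43.7 CPM with BI8622 and 22.4 CPM with DMSO (0.97), AKR1C2 at 42.6 CPM with BI8622 and 23.4 CPM with DMSO (0.86) and AKR1C3 at 61.4 CPM with BI8622 and 43.3 CPM with DMSO (0.51). AKR1A1 was at 45.3 CPM with BI8622 and 41.5 CPM with DMSO (0.13) and AKR1B1 at 53.9 CPM with BI8622 and 63.5 CPM with DMSO (-0.23). AKR1B10 alone was at least 2-fold higher, against 3.55% of all genes, and 3 members were at least 1.5-fold higher, against 11.0%. Those 3 were AKR1B10, AKR1C1 and AKR1C2. As in -Dox cells, AKR1B10 averaged at least 5 CPM only through the BI8622 groups, so its rank and its place in these counts carry no weight. With the pair means read as geometric, AKR1C1 passed 2-fold too, at 1.08. The median was 0.69 over the members (0.51 without AKR1B10) and 0.00 over all genes.

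The BI8622 log2 ratio in +Dox cells minus that in -Dox cells lay between -0.13, for AKR1B10, and 0.07, for AKR1B1, and each member was between the 24.6% and 70.5% points of all genes. The sign of these differences depends on how the pair means are read. With them read as geometric, the difference was 0.44 for AKR1B10, against -0.13, and 0.14 for AKR1C1, against -0.10. The level of -Dox cells in DMSO can be solved by 2 routes from different pairs, which should give the same value. Under the geometric reading they differed by 0.316 (log2) for AKR1B10 and 0.165 for AKR1C1, against 0.0113 and 0.0120 under the arithmetic reading. Over all genes the 95th percentile of this gap was 0.207 under the geometric and 0.00981 under the arithmetic reading. The arithmetic reading, used for the main values, thus met this check more closely. For doxycycline itself no member reached 1.5-fold, where 0.655% of all genes did in DMSO and 0.701% with BI8622. The log2 ratio for AKR1B10 was 0.32 in DMSO, at 4.00 CPM in +Dox cells and 3.20 CPM in -Dox cells, and 0.19 with BI8622, and that for AKR1A1 was -0.21 and -0.33. Those of the AKR1C genes lay between -0.11 and 0.13. ZBTB17 was lower in +Dox cells by a log2 ratio of only -0.52 in DMSO and -0.99 with BI8622, so part of the MIZ1 transcript remained.

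**Figure D2:**
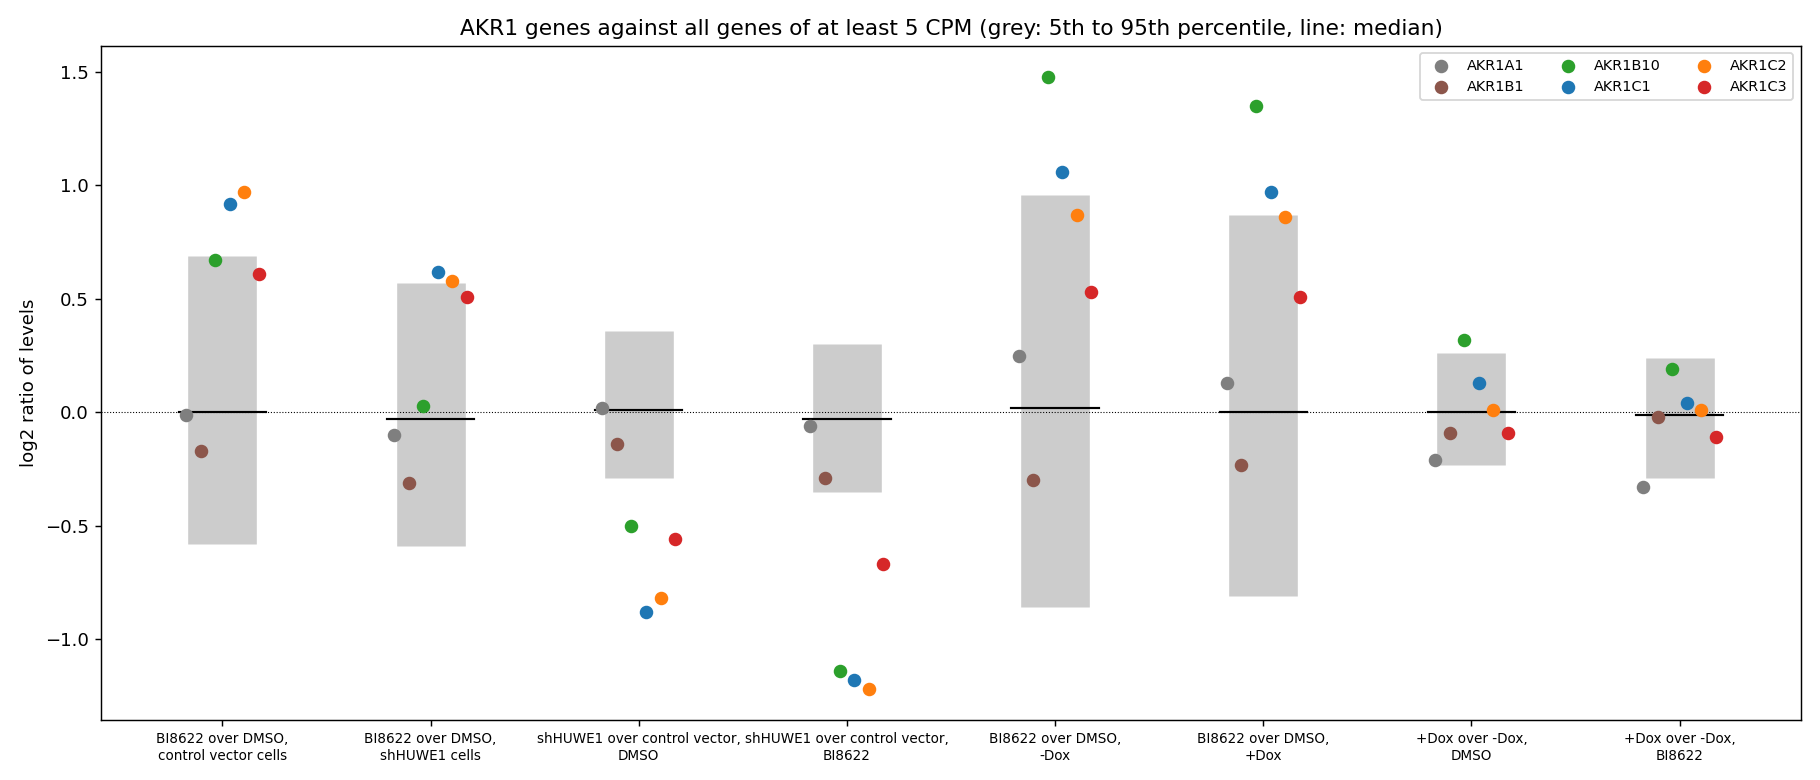
Log2 ratio of levels (y axis) of the 6 AKR1 genes, 1 point a gene, in the 8 comparisons (x axis), over the 5th to 95th percentile (grey) and the median (line) of all genes of at least 5 CPM. The AKR1C genes and AKR1B10 lie below the grey range in both shHUWE1 comparisons, at -1.22 for AKR1C2 with BI8622.

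AKR1C1 and AKR1C2 kept a near constant ratio to each other. The level of AKR1C1 over that of AKR1C2 in CPM was between 0.877 and 1.19 over the 8 groups, above 1.1 in all 4 groups of the HUWE1 experiment. AKR1C3 over AKR1C1 ranged from 1.40 in +Dox cells with BI8622 to 2.40 in shHUWE1 cells in DMSO, since AKR1C3 had the smallest ratios of the 3 genes in each comparison with BI8622 or shHUWE1. Because of the shared sequence, the near constant ratio of AKR1C1 to AKR1C2 cannot be told apart from reads of one gene counted for the other. The sum over the 3 genes does not depend on the split of shared reads only if each was counted once and within these genes, which is not known. This sum was 228 CPM with BI8622 and 132 CPM with DMSO in control vector cells (log2 ratio 0.79). In shHUWE1 cells it was 120 CPM with BI8622 and 81.6 CPM with DMSO (0.55). The sum in shHUWE1 over control vector cells had log2 ratios of -0.70 in DMSO and -0.93 with BI8622.

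**Figure D3:**
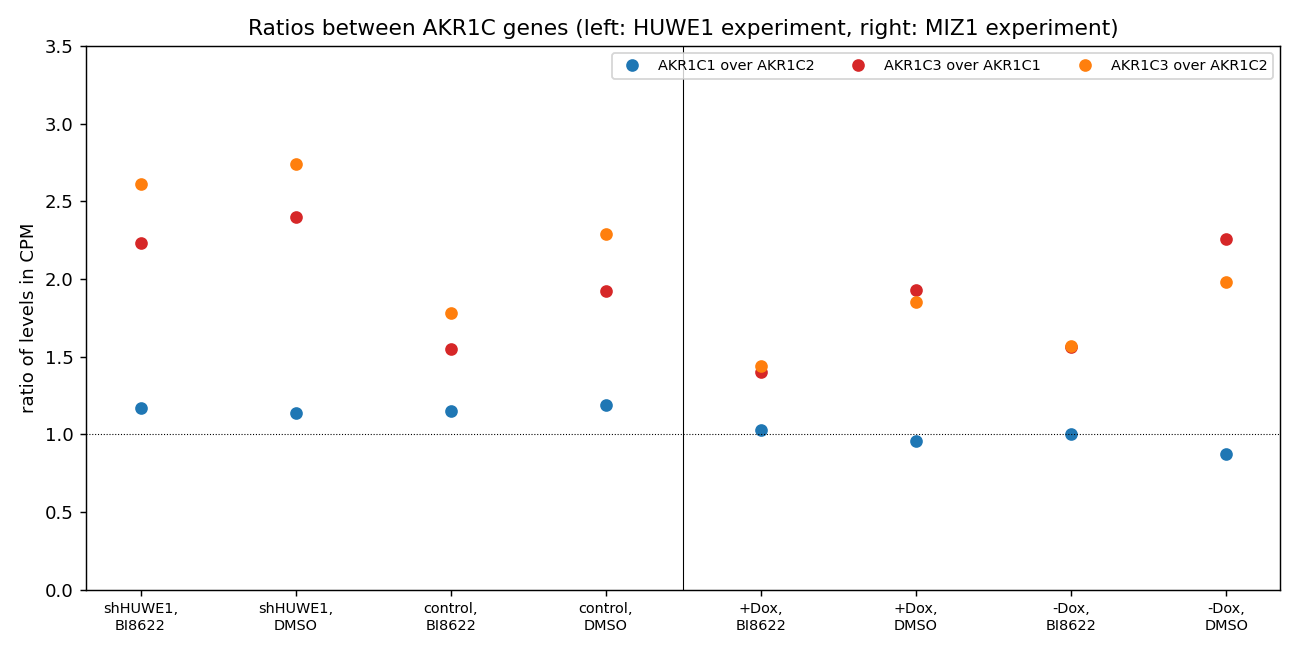
Ratio of the levels in CPM of AKR1C genes (y axis) in each of the 8 groups (x axis), 1 point a group and pair. AKR1C1 over AKR1C2 stays between 0.877 and 1.19, while AKR1C3 over AKR1C1 spans 1.40 to 2.40.

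Levels can be compared between genes only per length. Per kilobase of the canonical transcript, AKR1C3 was highest of the members in control vector cells with BI8622, at 87.7 CPM per kb, then AKR1B1 (43.9), AKR1A1 (38.9), AKR1C2 (18.1), AKR1C1 (10.2) and AKR1B10 (4.74). In DMSO the order was the same in control vector cells, with 57.1 CPM per kb for AKR1C3 and 2.98 for AKR1B10. In the other DMSO groups AKR1B1 was first, at 44.7 CPM per kb in shHUWE1 cells, where AKR1C3 was at 38.6, at 46.7 in +Dox cells, where AKR1C3 was at 36.5, and at 49.6 in -Dox cells, where AKR1C3 was at 38.9. The canonical AKR1C1 transcript has 6543 bases and that of AKR1C3 1186, and the sources used here do not say which part was counted, so the place of AKR1C1 below AKR1C2 depends on that length.

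AKR1C4, the liver member of the subfamily in humans, was at 9.49 CPM with BI8622 and 5.88 CPM with DMSO in control vector cells (log2 ratio 0.69), and its ratio for shHUWE1 over control vector was -0.65 in DMSO and -1.03 with BI8622. AKR1C4 is identical to AKR1C1 at 88.5% of coding positions. AKR1D1, a steroid 5-beta-reductase, was at 12.3 CPM with BI8622 and 12.0 CPM with DMSO (0.03) and AKR1E2 at 5.57 CPM with BI8622 and 7.24 CPM with DMSO (-0.38) in control vector cells. AKR1B15, the nearest relative of AKR1B10, was under 2 CPM in every group.

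Other genes were read from lists of NRF2 targets, AHR targets, and other carbonyl reductases and aldehyde dehydrogenases. Whether NRF2 or AHR acted on the members in these cells was not tested. Of 26 NRF2 targets outside the family with at least 5 CPM, 4 were at least 2-fold higher with BI8622 in control vector cells, where 1.77% of all genes were, and none lower, with a median log2 ratio of 0.20 against 0.00 over all genes, and in shHUWE1 over control vector cells none passed 2-fold either way in DMSO, with a median of -0.12 against 0.01. For BI8622 over DMSO, 3 of the 26 were 2-fold higher in shHUWE1 cells (1.05% of all genes), 6 in +Dox cells (3.55%) and 7 in -Dox cells (4.60%), and none was 2-fold lower. In control vector cells the conjugate exporter ABCC3 was at 81.1 CPM with BI8622 and 16.5 CPM with DMSO (2.30), and the cystine transporter SLC7A11 at 302 CPM with BI8622 and 97.0 CPM with DMSO (1.64). The aldehyde dehydrogenase ALDH3A1, which is also on the AHR list, was at 170 CPM with BI8622 and 76.0 CPM with DMSO (1.16). In DMSO these 3 genes differed in direction between shHUWE1 and control vector cells. ABCC3 was at 23.9 CPM in shHUWE1 cells and 16.5 CPM in control vector cells (0.54, above 98.2% of genes), SLC7A11 at 88.4 CPM in shHUWE1 cells and 97.0 CPM in control vector cells (-0.13), and ALDH3A1 at 45.6 CPM in shHUWE1 cells and 76.0 CPM in control vector cells (-0.74).

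Of 8 AHR targets, 5 were at least 2-fold higher with BI8622 in control vector cells, where 1.77% of all genes were, and their median log2 ratio was 1.40, against 0.64 over the members. CYP1B1, which hydroxylates estrogens and aromatic hydrocarbons, was at 115 CPM with BI8622 and 25.1 CPM with DMSO (2.20). CYP1A1 reached 302 CPM with BI8622, and its level with DMSO was too near 0 to be resolved, as was that of CYP1A2, which reached 19.8 CPM. In shHUWE1 over control vector cells in DMSO, no AHR target passed 2-fold and the median was -0.19, against -0.53 over the members. CYP1A1 and CYP1A2 were not resolved in control vector cells in DMSO. Their ratios here (0.00 and 0.06) were set by the lowest level resolved, 2% of the highest of that gene. Neither can be read as unchanged, and both enter the median. For BI8622 over DMSO, 6 of the 8 were 2-fold higher in shHUWE1 cells (1.05% of all genes), 5 in +Dox cells (median 1.93, 3.55% of all genes) and 5 in -Dox cells (median 2.04, 4.60% of all genes). Of 16 other carbonyl reductases and aldehyde dehydrogenases, 1 was 2-fold higher with BI8622 in control vector cells, ALDH1A3 (18.9 CPM with BI8622 and 7.52 CPM with DMSO, 1.33), none was 2-fold lower, and the median was 0.01. DHRS2 was lower with BI8622 (24.5 CPM with BI8622 and 47.4 CPM with DMSO, -0.95) and higher in shHUWE1 cells in DMSO (107 CPM, against 47.4 CPM in control vector cells, 1.17), the opposite of the AKR1C genes in both. DHRS3 was at 8.13 CPM with BI8622 and 4.33 CPM with DMSO in control vector cells (0.91).

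Over the log2 ratios of the 8 comparisons, the gene nearest to AKR1C1 among 16529 was AKR1C2, at a Euclidean distance of 0.27, then PNMA2 (0.42) and the pseudogene PSAT1P3 (0.44). Nearest to AKR1B10 were SEL1L (0.76), RNF187 (0.79) and PHGDH (0.79), all farther away than the genes named for AKR1C1. AKR1B10 averaged under 5 CPM in the HUWE1 experiment. In the MIZ1 experiment it averaged at least 5 CPM only through the BI8622 groups. The neighbours of AKR1B10 therefore carry no weight, and the levels of PHGDH and SEL1L are given as a description only. PHGDH, which starts serine synthesis from a glycolytic intermediate, was at 127 CPM in shHUWE1 cells and 225 CPM in control vector cells with BI8622 (-0.83). SEL1L, an adaptor of the degradation of misfolded proteins from the endoplasmic reticulum, was at 70.9 CPM in shHUWE1 cells and 126 CPM in control vector cells (-0.83). The comparisons share groups, so these distances rest on fewer than 8 independent values.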

How the data were processed

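Libraries of poly-A RNA were read on a Genome Analyzer IIx (Illumina). Per the paper and the submitters' processing notes, the authors aligned reads to hg19 (GRCh37) with Bowtie 0.12.8 and compared groups with edgeR. The paper gives the Bowtie settings for RNA as default. The sources used here name neither the way reads were counted per gene nor the depth of a library. Libraries were made with 1 of 2 kits, and which library had which kit is not given either, nor whether libraries of a group were separate cultures. The paper's methods include cell sorting for the MIZ1-depleted cells.

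The deposited log2 values used are the authors' mean log2 CPM for pairs of groups (4 pairs in the HUWE1 and 5 in the MIZ1 experiment). The columns of the authors' own comparisons hold log2 fold changes, p-values and adjusted p-values and were not used. On the linear scale each pair mean was taken as the mean of both groups, and group levels were solved by least squares (Python 3.11.15, numpy 2.4.6, pandas 2.3.3), a step tested on simulated data. In the MIZ1 experiment the level of -Dox cells in DMSO can be had by 2 routes, which differed by a median of 0.00243 (log2). The HUWE1 experiment has 4 pairs for its 4 groups, so no such check was possible there. Its control vector cells with BI8622 enter only through their pair with control vector cells in DMSO. A level under 2% of the highest of that gene was not resolved, and for ratios it was set to that 2%. No pseudocount was used, and all genes means those of at least 5 CPM on average.

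Coding sequences were aligned with biopython 1.88, on GENCODE transcripts of GRCh37, and promoters are from RefSeq. Genes named are the 6 members, the other AKR1 genes, the targeted genes, the 3 genes of each list with the largest absolute log2 ratio for BI8622 in the HUWE1 experiment, and the 3 nearest to AKR1B10 and AKR1C1. The members and lists were chosen with earlier results of these data known. ChIP libraries were not analysed here.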

Additional observations from a re-analysis of the deposited data

How the results depend on the processing

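No direction of a member past 1.5-fold reversed under any alternative run. A pseudocount of 0.5 CPM moved 3 of 48 member ratios by over 0.1, all of AKR1B10, by at most 0.13 (BI8622 over DMSO in -Dox cells). Centring on the median moved none by more than 0.03, and the difference of log2 pair means, where it could be used, none by more than 0.01. Subtracting the excess of the summed levels over the CPM total, 0.235 CPM per gene in the HUWE1 and 0.241 in the MIZ1 experiment, was chosen after seeing the data and moved none by more than 0.07.

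Reading the pair means as geometric moved 5 of 48 member levels and 11 of 48 member ratios by over 0.1 on the log2 scale. It was planned for the levels only, and its use on ratios and counts was chosen after seeing the data. The ratio it moved most was that of AKR1B10 for doxycycline in DMSO, by 0.31. It took AKR1C2 past 2-fold for BI8622 in control vector cells (1.07) and AKR1C1 in +Dox cells (1.08), and AKR1C1 under 2-fold in -Dox cells (0.94) and under 1.5-fold in shHUWE1 cells (0.50), where AKR1C2 passed 1.5-fold under centring (0.61) and under the subtraction (0.59). The +Dox minus -Dox difference of the BI8622 ratios changed sign for AKR1B10 (0.44) and AKR1C1 (0.14). Under that reading the 2 routes to a level differed by 0.316 for AKR1B10 and 0.165 for AKR1C1, against 0.0113 and 0.0120 under the arithmetic reading. It gave 65 genes past 2-fold for shHUWE1 with BI8622, 15 for doxycycline in DMSO and 20 with BI8622.

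The number of all genes past 2-fold was 416 for BI8622 in control vector cells, 297 in shHUWE1 cells, 44 for shHUWE1 in DMSO, 36 with BI8622, 1370 for BI8622 in -Dox cells, 1085 in +Dox cells, 6 for doxycycline in DMSO and 9 with BI8622. In that order the counts were 2071, 1671, 308, 286, 4161, 3733, 113 and 121 at 1.5-fold, 939, 646, 212, 171, 2325, 1861, 95 and 83 for genes of at least 1 CPM, and 1014, 700, 244, 196, 2478, 1980, 132 and 118 with no filter on low values.

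No paired analysis was possible because the values used are means over groups and carry no replicate numbers, and for the same reason leaving out each library in turn was not run. The depth is unknown, so no counting error is given for a low level such as that of AKR1B10.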
